A study of Mus musculus with 8 samples.

Results

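Rab proteins are small GTPases of the Ras superfamily that mark the membranes of the vesicle system and recruit the motors, tethers and fusion factors that move one compartment's cargo to the next. Each cycles between a GTP-bound form, loaded by an exchange factor (GEF), and a GDP-bound form, produced by a GTPase-activating protein (GAP), and a lipid added near the C terminus holds it on the membrane. In T cells such traffic carries antigen receptors back to the surface and delivers cytotoxic granules to the contact with a target cell. The genes described here were those whose symbol in the deposited m6A peak lists begins with Rab and a digit. They numbered 49 of the 12413 genes with a peak in either list, 40 encoding Rab GTPases and 9 encoding proteins that are named after the Rab they bind or regulate.

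In mouse primary T cells, RNA carrying the modified base N6-methyladenosine (m6A) was enriched with an antibody step and sequenced beside input RNA. Of the 8 samples, 2 were immunoprecipitated and 2 were input from cells labelled PTC and 24 h. Another 2 were immunoprecipitated and 2 were input from control cells, also labelled 24 h. PTC is read here as an agent given to the cells, and the labels do not say what it is. They give no strain, age or sex of the mice and no vehicle for the control cells. Nor do they state that the 2 samples of a group came from separate animals or cultures. The title of the series refers to the Polycomb protein BMI1 and to liver cancer immunotherapy. Values are given per condition, as 1 peak list for PTC and 1 for control, so no difference between the lists has a replicate check and no test between conditions was possible. The read depth behind each value is unknown.

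The lists held 23368 PTC and 29586 control peaks over all genes. In the authors' deposited table, peaks took 33.03% of PTC and 36.07% of control reads, with 15855 PTC and 19420 control peaks counted there, fewer than the lists hold, for a reason that is not stated. Of the T cell markers checked, such as Cd3e and Lck, all 10 had peaks in both lists. The lists also held markers of other blood cells. Peaks were found in both lists for 5 of the 6 B cell markers and 6 of the 7 myeloid markers, and in PTC only for 4 of the 6 erythroid markers, with a −log10 FDR of 1.91 to 3.91 (the false discovery rate the authors gave each peak, larger values being more significant). The part of such cells in the Rab peaks was not tested.

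m6A is deposited mostly at adenosines in a short consensus of which GGACT is one form. A search for GGACT on the transcript strand found 68 sites inside peaks of 33 Rab-named genes, 27 of them in peaks of both lists, 14 in PTC peaks only and 27 in control peaks only. The windows of 25 nt below are shown because they are the sites that lie in the strongest peak of both lists, in 5 genes among those with the most significant peaks and in Rab5a. GGACT is in capitals, and the sequences are those of GENCODE M21 transcripts on build GRCm38, 5′ to 3′ on the strand of the gene.
Rab8b, chr9:66847532-66847556, minus strand: gcaaaagagcGGACTcctttcttta
Rab22a, chr2:173701211-173701235, plus strand: tatgcaaaaaGGACTcagagaaccg
Rab22a, chr2:173701285-173701309, plus strand: ttctgtcagtGGACTctggcgtgca
Rab35, chr5:115646003-115646027, plus strand: ccagctgagtGGACTgattaaccag
Rab8a, chr8:72180225-72180249, plus strand: acggctgcccGGACTcgattgagaa
Rab43, chr6:87792354-87792378, minus strand: tcacattccaGGACTagcctgagcc
Rab43, chr6:87792723-87792747, minus strand: cctccgcaaaGGACTccagcaatgt
Rab5a, chr17:53506602-53506626, plus strand: aggaaaatgaGGACTgtgtgtacac
Of these 8 sites 7 lie in the 3′ UTR, and the second Rab43 site lies in coding sequence, with its A at −142 nt, counted from the last coding base. The A of the other sites stood 178 nt downstream of the last coding base in Rab8b, 107 and 181 nt in Rab22a, 257 nt in Rab35, 103 nt in Rab8a, 227 nt at the first Rab43 site and 188 nt in Rab5a. The site is a match of letters, and which adenosine was methylated was not measured.

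A second set of windows is shown because 3 Rab11-binding proteins carry like GGACT sites in coding sequence. Rab11fip1, Rab11fip2 and Rab11fip3 encode effectors that bind Rab11 through a C-terminal domain and link recycling endosomes to motors. This set was picked after its values were seen.
Rab11fip1, chr8:27143258-27143282, minus strand: gggagctggaGGACTacatcgacaa
Rab11fip2, chr19:59907007-59907031, minus strand: gggagctagaGGACTacattgacaa
Rab11fip3, chr17:25990824-25990848, minus strand: tccgcctgcaGGACTacattgacag
Over the 25 nt, the Rab11fip1 and Rab11fip2 windows were identical at 23 positions, and Rab11fip3 shared 17 with either. Counted from the last coding base, the A stood at −91 nt in Rab11fip1, −100 nt in Rab11fip2 and −61 nt in Rab11fip3. The Rab11fip1 site was inside peaks of both lists, that of Rab11fip2 inside a weak PTC peak (−log10 FDR 2.62) and that of Rab11fip3 inside a control peak (−log10 FDR 12.5). The word GGACTACAT shared by the 3 windows was not found in the transcripts searched of Rab11fip4 and Rab11fip5.

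Most Rab-named genes carried m6A peaks in both conditions. Of the 49 genes, 43 (79.2% of all listed genes are in both) had peaks in both lists, 3 in PTC only (8.24% of all) and 3 in control only (12.5% of all). The 43 of 49 and the small counts in 1 list only were near the shares over all listed genes, and nothing is read from them about the family. The PTC list held 100 peaks of these genes and the control list 132, or 2.17 and 2.87 peaks per listed gene, against 2.15 and 2.60 over all genes. Of the 43 genes in both lists, 11 had more peaks in PTC (25.6%, against 16% of all genes in both lists). Equal numbers were found in 11, and 21 had fewer in PTC (48.8%, against 41.6%). When the control list was reduced to the length of the PTC list by FDR, 41 genes were in both lists (78.8% of all), 5 in PTC only (13.6%) and 2 in control only (7.53%). This left no control peak below a −log10 FDR of 2.93, while PTC peaks of these genes were kept down to 1.66. The 5 include Rab37 and Rab3il1, whose control peaks (2.33 and 1.92) were cut. Of the 41 genes in both, 12 had more peaks in PTC (29.3%, against 24.7% of all genes in both). Equal numbers were found in 18, and 11 had fewer (26.8%, against 28.2%). The excess of genes with fewer PTC peaks was not seen there, and over all genes it shrank as well. The unequal floors bear on these counts and nothing is concluded from them. With both lists held to a −log10 FDR of at least 5, 32 genes were in both (79.5% of all), 3 in PTC only (9.86%, Rab11a, Rab29 and Rab3il1) and 2 in control only (10.6%, Rab11fip3 and Rab6a). With a fold enrichment of at least 4 the counts were 23 in both (59.4%), 6 in PTC only (16%) and 8 in control only (24.6%).

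**Figure D1:**
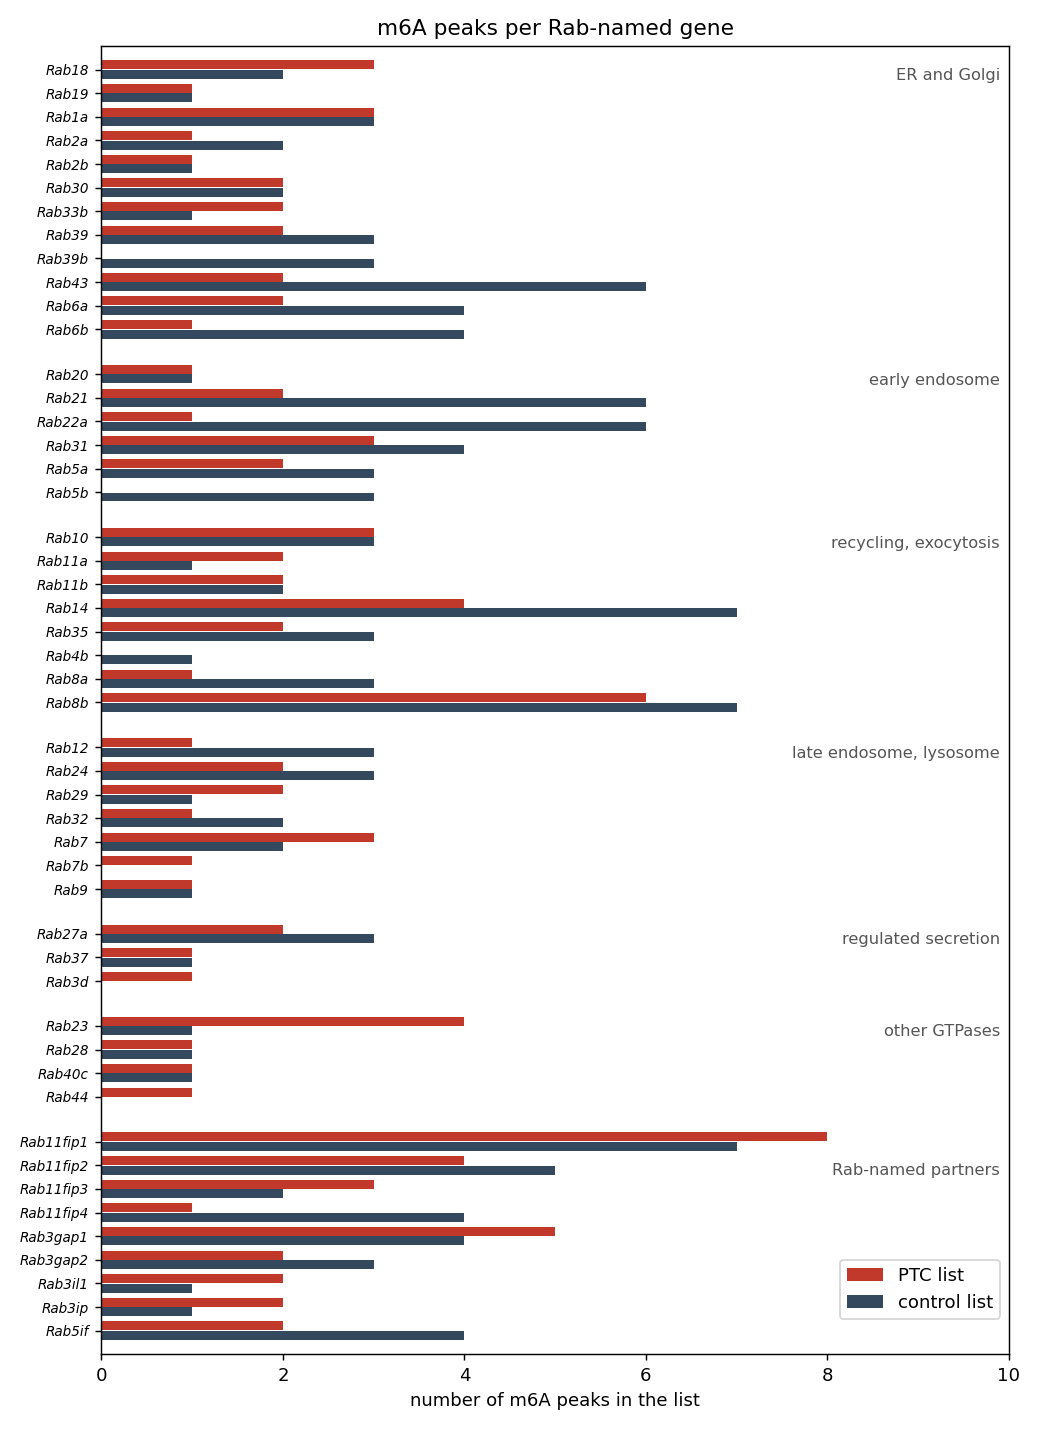
Number of m6A peaks (horizontal axis) of each of the 49 Rab-named genes in the PTC list (red, upper bar) and the control list (dark blue, lower bar), grouped by the role of the protein. Rab11fip1 has the most PTC peaks, 8, and Rab11fip1, Rab14 and Rab8b have 7 control peaks each.

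The strongest Rab peaks mostly lay at the same places in both lists. In 35 of the 43 genes (81.4%, exact 95% interval 66.6 to 91.6%) the most significant PTC peak overlapped the most significant control peak, close to the 80.4% of all genes in both lists. Of the 10 genes with the most significant peaks, 8 were in the top 10 of both lists, namely Rab8b, Rab22a, Rab35, Rab8a, Rab5if, Rab9, Rab43 and Rab27a. Rab33b and Rab11fip1 were the others in PTC, and Rab7 and Rab1a those in control. Strength is given as −log10 FDR and as fold enrichment over input, both the authors' own values. They rank peaks within a list and show no change of methylation between lists.

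Among the GTPases of recycling and exocytosis, Rab8b, which carries cargo from the trans-Golgi network and recycling endosomes to the plasma membrane, led both lists. It held 6 PTC and 7 control peaks. Its strongest peak (chr9:66847138-66848643, 720 nt in 2 exon blocks, in the PTC list and chr9:66847078-66848643 in the control list) had a −log10 FDR of 265 with a fold enrichment of 3.25 in the PTC list, and 159 with 3.01 in the control list. All 6 PTC peaks of Rab8b were overlapped by control peaks. The control list held in addition a peak of the 3′ UTR (chr9:66846270-66846719, −log10 FDR 33.0), the most significant of all Rab control peaks without a PTC partner.

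Its close relative Rab8a held 1 PTC and 3 control peaks. The PTC peak (chr8:72177662-72180996, fold enrichment 3.42, −log10 FDR 97.9) began at the same base as the strongest control peak (chr8:72177662-72181056, 4.34, 149). The other 2 control peaks, 1 in coding sequence (−log10 FDR 7.26) and 1 far in the 3′ UTR (3.62), had no PTC partner. Rab35, a GTPase of fast recycling from endosomes, held 2 PTC and 3 control peaks. Its strongest peak crossed the stop codon in both lists (chr5:115643584-115646237 in PTC, −log10 FDR 99.5, and chr5:115643412-115646117 in control, 67.7).

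The recycling endosome GTPases Rab11a and Rab11b had weaker peaks. Rab11a held 2 PTC peaks and 1 control peak, with the same block of 150 nt in the 3′ UTR (chr9:64716645-64716794) at −log10 FDR 6.48 in PTC and 4.8 in control. Rab11b held 2 peaks in each list, the strongest at −log10 FDR 26.0 in PTC and 27.2 in control. Both lists also held a peak in the processed pseudogene Rab11b-ps2 (−log10 FDR 16.2 in PTC and 9.34 in control), so reads of Rab11b and this copy may be shared. Rab14, which acts between the trans-Golgi network and endosomes, held 4 PTC and 7 control peaks, all 4 PTC peaks overlapping control peaks along the 3′ UTR and the end of the coding sequence. Rab10, which delivers exocytic cargo to the plasma membrane, held 3 peaks in each list, and its most significant ones did not overlap. Rab4b, of early endosome recycling, had 1 control peak in coding sequence (−log10 FDR 2.44) and none in PTC, and it overlaps an exon of another gene, Gm21983, on the same strand.

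The 6 listed early endosome GTPase genes held 9 PTC and 23 control peaks. Rab22a, which acts in sorting and recycling from early endosomes, held 1 PTC and 6 control peaks. The PTC peak (chr2:173701035-173701962, 928 nt, fold enrichment 6.71, −log10 FDR 135) lay over the start of the 3′ UTR and was matched by the strongest control peak (chr2:173695983-173701992, 8.16, 83.7). The other 5 control peaks had a −log10 FDR between 2.54 and 5.32, 1 in the 5′ UTR and 4 along the 3′ UTR as far as 5629 nt beyond the stop codon. At equal list length Rab22a still had 1 PTC and 5 control peaks.

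Rab21, a GTPase of integrin endocytosis, held 2 PTC and 6 control peaks. Its strongest peak reached −log10 FDR 39.7 in PTC (chr10:115290251-115294897) and 35.5 in control (chr10:115290102-115295456). Of the 4 control peaks without a partner, 2 overlapped each other in the 5′ UTR, so they are not separate regions, and 1 in the 3′ UTR reached −log10 FDR 13.1. At equal list length the numbers were 2 PTC and 3 control peaks.

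Of the Rab5 genes, whose products drive early endosome fusion, Rab5a held 2 PTC and 3 control peaks, the strongest at −log10 FDR 30.7 in PTC and 21.2 in control. Rab5b held 3 control peaks in the 3′ UTR, with −log10 FDR 4.09, 4.6 and 3.25, and none in PTC. All 3 remained at equal list length, while none reached a −log10 FDR of 5. Rab20 held a single peak with the same ends in both lists (chr8:11453577-11478355, 978 nt in 2 blocks), at fold enrichment 9.56 and −log10 FDR 31.8 in PTC and 6.98 and 15.3 in control. Rab31, of transport from the trans-Golgi network to endosomes, held 3 PTC and 4 control peaks, the strongest at −log10 FDR 6.59 in PTC and 5.08 in control.

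Of the GTPases of the endoplasmic reticulum and Golgi, 12 genes held 20 PTC and 32 control peaks. Rab43 held 2 PTC and 6 control peaks. The strongest (chr6:87792198-87793983 in PTC, −log10 FDR 47.3, and chr6:87791660-87794013 in control, 45.0) spanned the stop codon, and was 658 nt wide in PTC and 1226 nt wide in control. Of the 8 Rab43 peaks, 7 also lay over exons of Gm45140 on the same strand, so their gene is uncertain. At equal list length Rab43 had 2 PTC and 5 control peaks.

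Rab1a, which acts in transport from the endoplasmic reticulum to the Golgi, held 3 peaks in each list and all were overlapped. They lay in the 5′ UTR (−log10 FDR 28.3 in PTC and 35.9 in control), at the end of the coding sequence (20.3 and 19.3) and in the 3′ UTR (8.48 and 14.6). Rab33b, a Golgi GTPase that binds the autophagy factor Atg16l1, reached −log10 FDR 52.0 in PTC and 31.9 in control in a peak across the stop codon. Rab6a, of retrograde Golgi transport, held 2 PTC and 4 control peaks, and its relative Rab6b 1 and 4. The most significant PTC and control peaks did not overlap in Rab6a and did in Rab6b. At equal list length Rab6a still had 2 PTC and 4 control peaks, and Rab6b had 1 in each list.

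In Rab2a, Rab18, Rab19 and Rab30 the strongest peaks of the lists overlapped. Rab2a, which acts between the endoplasmic reticulum and the Golgi, held 1 PTC and 2 control peaks, the strongest at −log10 FDR 24.2 in PTC and 20.5 in control. Rab18, of lipid droplets and the endoplasmic reticulum, held 3 PTC and 2 control peaks, with 15.1 and 19.8 at the end of the coding sequence. Rab19 held 1 peak in each list (18.9 in PTC and 8.78 in control) and Rab30, a Golgi GTPase, 2 in each (strongest 12.1 and 9.56).

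The Golgi group also held the 2 shared genes with no overlapping peaks, of 43 shared Rab-named genes. Over all genes, 521 of the 9836 in both lists had no overlapping pair, and nothing is read from the count. Rab2b had 1 PTC peak at the stop codon (chr14:52263645-52263765, −log10 FDR 2.60) and 1 control peak further into the 3′ UTR (chr14:52263017-52263316, 3.00). Rab39 had 2 PTC peaks and 3 control peaks, all with a −log10 FDR of at most 4.16. Its X-linked relative Rab39b had 3 control peaks with a −log10 FDR of at most 4.01 and none in PTC.

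Among the late endosome and lysosome genes, Rab9, which acts in return from late endosomes to the Golgi, held 1 peak in each list, across the stop codon (chrX:166457312-166458897 in PTC, fold enrichment 6.47, −log10 FDR 69.9, and chrX:166457401-166458897 in control, 7.85, 58.4). Rab7, the main GTPase of late endosomes and their fusion with lysosomes, held 3 PTC and 2 control peaks. Its strongest peak had a low fold enrichment, 1.95 in PTC and 2.02 in control, at −log10 FDR 28.9 and 37.2. A Rab7 pseudogene, Rab7-ps1, also had a peak in both lists (20.3 in PTC and 19.6 in control), so reads may be shared with it. Rab12, of receptor transport to lysosomes, held 1 PTC peak of 1250 nt that overlapped 2 separate control peaks. Rab32, of lysosome-related organelles, held 1 PTC and 2 control peaks (strongest 20.6 and 7.75). Rab29, of lysosomes and the trans-Golgi network, held 2 PTC peaks and 1 control peak (strongest 13.1 and 3.89), and Rab24, of autophagy, 2 PTC and 3 control peaks (strongest 6.03 and 25.8). Rab7b had 1 PTC peak (chr1:131711890-131712427, fold enrichment 18.8, −log10 FDR 4.40) and none in control.

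Of the GTPases of regulated secretion, Rab27a, which docks cytotoxic granules at the plasma membrane of killer T cells, had the strongest peaks. It held 2 PTC and 3 control peaks. The strongest began at the same base in both lists and ran across the end of the coding sequence into the 3′ UTR (chr9:73095213-73096048 in PTC, fold enrichment 5.19, −log10 FDR 46.0, and chr9:73095213-73096078 in control, 8.70, 77.0). No GGACT lay in that peak in either list. The second 3′ UTR peak was 120 nt wide in PTC (−log10 FDR 6.98) and 627 nt wide in control (18.5).

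Rab37, a GTPase of granule exocytosis, had 1 weak peak in each list, 121 nt in PTC (fold enrichment 6.27, −log10 FDR 2.80) and 150 nt in control (3.42, 2.33). These overlapped in the 3′ UTR, and the control peak held 2 GGACT sites that lie outside the PTC peak, shown here because the PTC peak held none.
Rab37, chr11:115160969-115160993, plus strand: aaataggtcgGGACTcggtggtcct
Rab37, chr11:115160994-115161018, plus strand: ttgctttctgGGACTaagttctaaa
Rab3d, a secretory granule GTPase, had 1 PTC peak (−log10 FDR 2.24) and none in control. Rab44, a large Rab with additional domains, likewise had 1 PTC peak (2.65) and none in control. None of the 6 genes listed in 1 condition only had a peak with a −log10 FDR of 5.

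Rab23, a negative regulator of Hedgehog signalling in mouse development, was the member with the largest excess of PTC peaks, 4 in PTC and 1 in control. The control peak (chr1:33739334-33739932, fold enrichment 4.63, −log10 FDR 6.47) overlapped the strongest PTC peak (chr1:33739364-33739932, 12.8, 15.5). The other 3 PTC peaks lay further along the 3′ UTR with −log10 FDR 4.69, 3.01 and 2.41, and no control peak met them. The count was the same at equal list length. Rab28 held 1 peak with the same ends in both lists (871 nt, fold enrichment 9.03 and −log10 FDR 17.3 in PTC, 15.7 and 12.4 in control). Rab40c, which carries a SOCS box of ubiquitin ligases, held 1 overlapping peak in each list (−log10 FDR 9.98 in PTC and 5.18 in control).

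**Figure D2:**
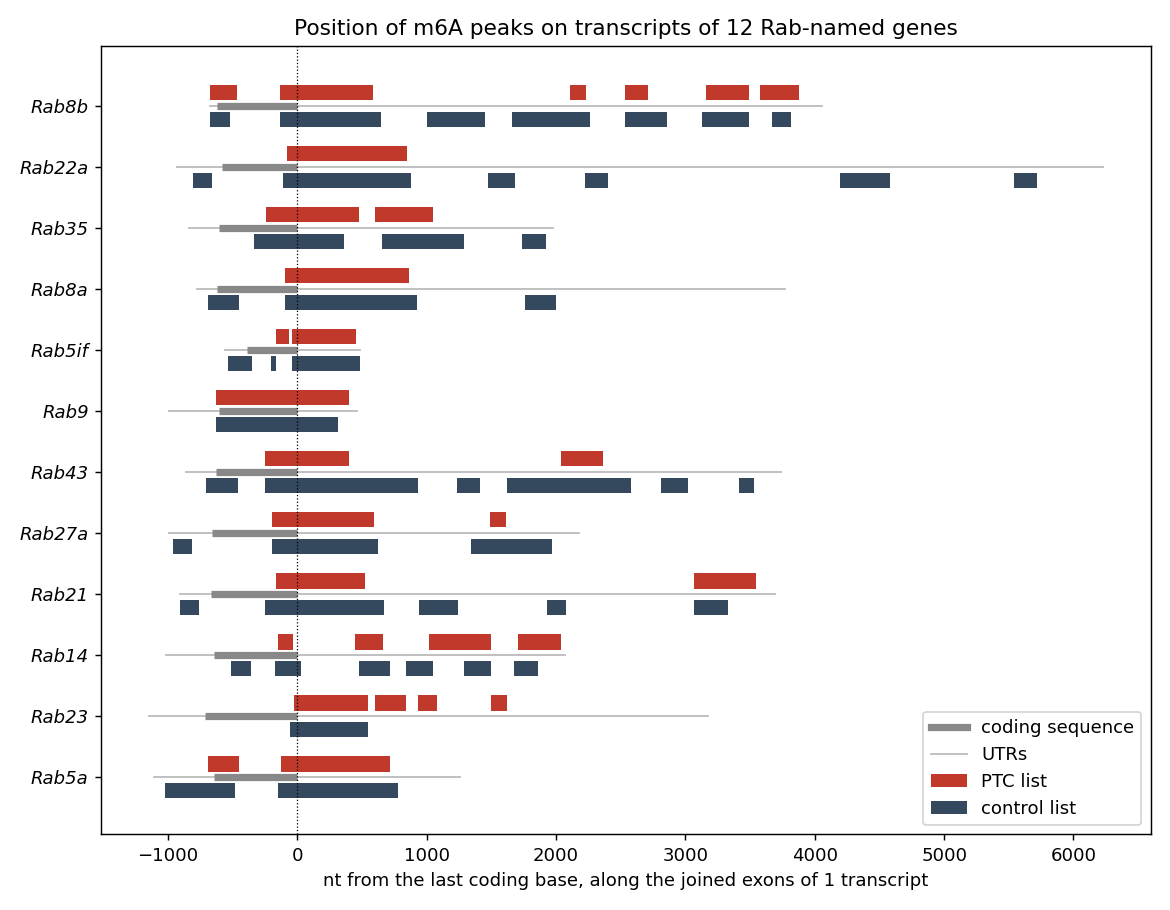
Peaks of 12 Rab-named genes along 1 coding transcript each, as distance in nt from the last coding base (dotted line), with PTC peaks (red) above and control peaks (dark blue) below the transcript, and coding sequence drawn thick. In each of the 12 genes a PTC and a control peak overlap at or near the stop codon, and most of the peaks seen in 1 list only lie further from it. Peaks outside the exons of the drawn transcript are left out.

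All 9 genes of Rab-named partner proteins were in both lists, with 29 PTC and 31 control peaks. Rab11fip1 held 8 PTC and 7 control peaks along its coding sequence and 3′ UTR. Its strongest peak had the same ends in both lists (chr8:27142583-27149064, 841 nt, 2 blocks), with fold enrichment 5.14 and −log10 FDR 48.3 in PTC and 4.89 and 28.0 in control. Rab11fip2 held 4 PTC and 5 control peaks, the strongest again with the same ends in both (chr19:59935612-59937034, −log10 FDR 30.8 in PTC and 11.8 in control). Rab11fip3, which acts in traffic through recycling endosomes and in cell division, held 3 PTC and 2 control peaks, all 3 PTC peaks below a −log10 FDR of 5 and the control peaks at 12.5 and 7.17. Rab11fip4 held 1 PTC and 4 control peaks, none above 4.16, and 1 in each list at equal length.

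Rab5if, named after binding to Rab5, held 2 PTC and 4 control peaks, with the strongest at −log10 FDR 72.5 in PTC (chr2:156872723-156873533) and 55.7 in control (chr2:156872633-156873563). That peak overlaps exons of Sla2 on the opposite strand. The GAP subunit genes Rab3gap1 and Rab3gap2 held 5 and 2 PTC peaks, and 4 and 3 control peaks. Of the GEF genes, Rab3ip held 2 PTC peaks and 1 control peak with a strongest −log10 FDR of 38.4 in PTC and 13.5 in control, and Rab3il1 held 2 PTC peaks and 1 control peak whose most significant ones did not overlap.

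**Figure D3:**
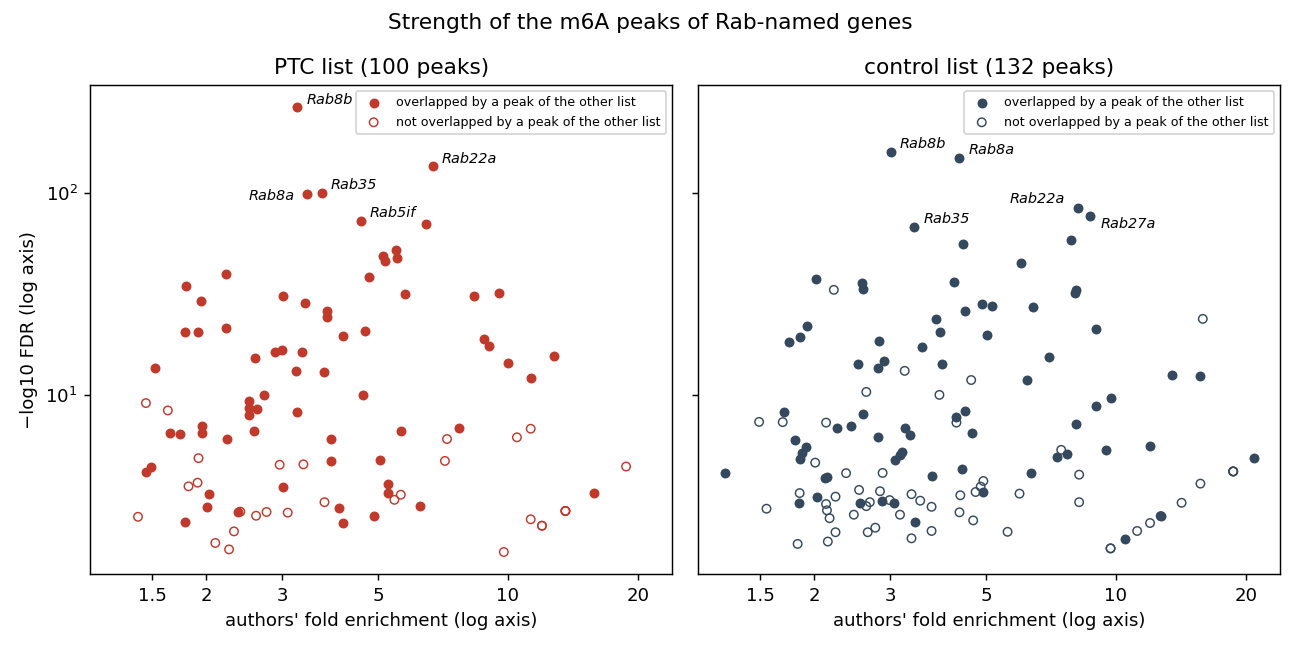
Authors' fold enrichment (horizontal, log axis) and −log10 FDR (vertical, log axis) of the 100 PTC (left) and 132 control (right) peaks of Rab-named genes, filled where a peak of the other list overlaps and with the 5 most significant named. In both lists the peaks without an overlap cluster at low −log10 FDR, with medians of 2.79 in PTC and 3.12 in control. Over all genes such peaks had medians of 3.08 and 3.32.

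By position, 70 of the 100 PTC peaks (70%, 95% interval 60 to 78.8%) were overlapped by a control peak over at least 1 bp of exon on the same strand, against 78.8% of all PTC peaks. Of the 132 control peaks 75 (56.8%, 47.9 to 65.4%) were overlapped by a PTC peak, against 60.2% of all control peaks. The intervals cover counting error only, and the PTC interval ended at the share of all PTC peaks. Overlapped Rab peaks had a median −log10 FDR of 13.3 in PTC and 8.31 in control, and those without a partner 2.79 and 3.12. Over all genes the medians split likewise, 9.43 and 10.1 with a partner and 3.08 and 3.32 without. Median widths were 389 nt in PTC and 416 nt in control with a partner, and shorter in both lists without one. That too held over all genes (331 and 390 nt with a partner, 179 and 180 nt without).

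Of the 30 PTC peaks without a partner 5 reached a −log10 FDR of 5, in Rab7 (9.07), Rab10 (8.34), Rab11b (6.77), Rab3il1 (6.14) and Rab3ip (6.02). Of the 57 control peaks without a partner 11 did. Beside the Rab8b peak at 33.0 these included 4 in 5′ UTRs, of Rab24 (23.7), Rab5a (11.8), Rab2a (10.3) and Rab5if (9.96). The shares of such peaks over all genes were not counted, and nothing is read from the Rab counts about the family. The Rab24 peak lies over exons of Prelid1 on the opposite strand. Among all 232 Rab peaks 34 lay over exons of another gene. Of these 11 did so on the same strand, in Rab43, Rab4b, Rab11a, Rab27a and Rab18, where it was the strongest PTC peak.

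The Rab peaks lay mostly in 3′ UTRs. Midpoints fell in the 3′ UTR in 70% of PTC (60 to 78.8%) and 66.7% of control peaks (57.9 to 74.6%), against 49.1% and 45.4% of all peaks in protein-coding genes. Coding sequence held 26% of PTC and 20.5% of control midpoints, against 40.7% and 41.8% of all. The transcripts of these genes were built differently, with a median coding sequence of 648 nt and a median 3′ UTR of 2014 nt, against 1383 and 1109 nt over 9973 coding genes with a peak. The 3′ UTR made up 66.1% of their transcript length, and 43.8% of that of all coding genes. Its part in the difference of the shares was not tested. For the GTPase genes alone the 3′ UTR share was 77.5% in PTC and 69.3% in control, and for the partner genes 51.7% and 58.1%.

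Of the Rab peak midpoints 29% in PTC (20.4 to 38.9%) and 18.9% in control (12.6 to 26.7%) stood no further than 200 nt from a stop codon, against 24.4% and 19.2% over all coding genes. Of these peaks 23 of 29 in PTC (79.3%) and 21 of 25 in control (84%) were overlapped by the other list. Over all coding genes the shares were similar, 82.9% and 76.7%. Among the strongest peaks of the 43 shared genes, 21 PTC and 19 control midpoints lay this near to a stop codon, and 34 in each list lay in the 3′ UTR. The strongest peaks of all genes were not counted this way, and nothing is read from these counts about the family.

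The 5′ UTR held 4 PTC midpoints, in Rab11fip2, Rab1a, Rab3il1 and Rab7, and 14 control midpoints in 12 genes. That is 4% of PTC peaks (1.1 to 9.93%) and 10.6% of control peaks (5.92 to 17.2%), intervals that overlap, against 5.73% and 5.85% over all coding genes. All 4 PTC peaks and 4 of the 14 control peaks there (28.6%, 8.39 to 58.1%) were overlapped by the other list. Over all coding genes 72.8% of PTC and 52.7% of control 5′ UTR peaks were, the latter inside the control interval. At equal list length the counts were 4 PTC and 10 control peaks. No test of the difference was possible.

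**Figure D4:**
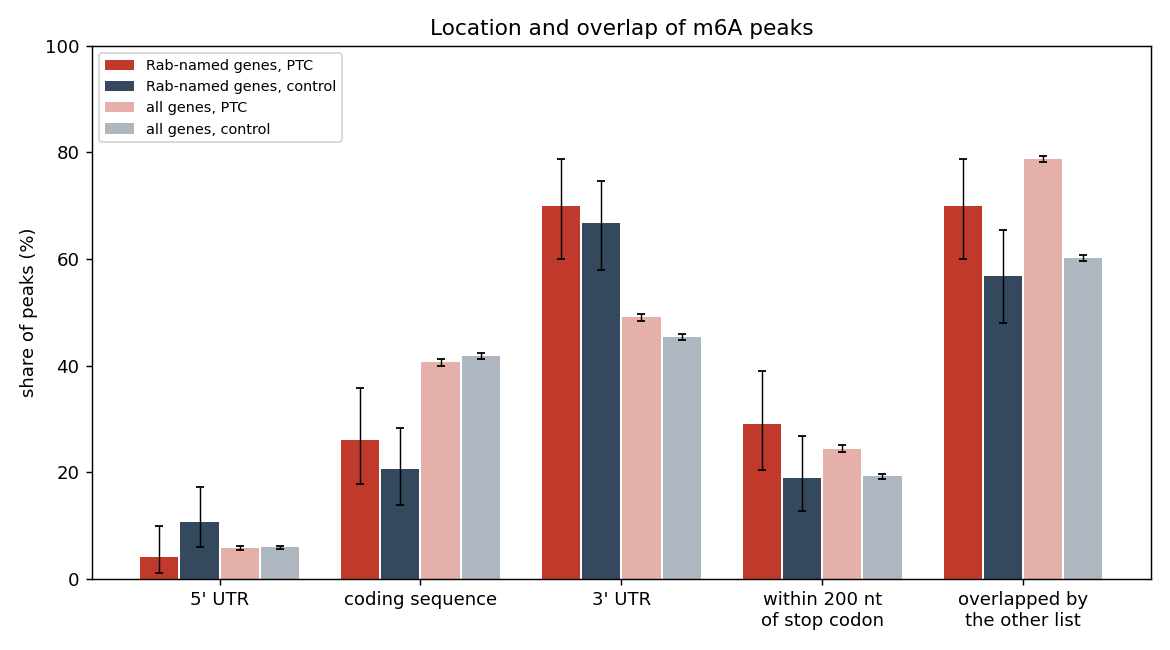
Share of peaks (%) by region of the midpoint, near the stop codon, and overlapped by the other list, for Rab-named genes (dark) and all genes (light) in the PTC (red) and control (dark blue) lists, with exact 95% binomial intervals. The 3′ UTR bars of Rab-named genes, 70% and 66.7%, stand above those of all genes, 49.1% and 45.4%.

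GGACT was found within 50 nt on either side of the midpoint in 9 of 100 PTC peaks (9%, 4.2 to 16.4%) and in 17 of 132 control peaks (12.9%, 7.68 to 19.8%). Over all peaks of the lists the shares were 12.9% in PTC and 11.6% in control, inside both intervals. Anywhere in the peak, 31% of PTC and 32.6% of control Rab peaks held the motif, against 37.3% and 34.3% of all peaks. Peaks of Rab10, Rab7, Rab9 and Rab1a held none in either list, which says only that these letters are not there.

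Genes of the wider Rab cycle were described from lists of 83 genes, of which 73 had a peak, 63 in both lists (86.3%, against 79.2% of all listed genes), 2 in PTC only (2.74%, against 8.24%) and 8 in control only (11%, against 12.5%). No test over these lists was made, and nothing particular to them is read from the counts. All 8 genes of Rab chaperones and prenylation, such as Gdi2, Chm and Rabggtb, were in both, with 19 peaks in each list. Of the GEF genes 18 of 21 listed were in both and 3 in control only, among them Dennd4b (2 peaks, highest −log10 FDR 8.17). Of the GAP genes 19 of 22 were in both, Tbc1d13 (4 peaks, 8.35) and Evi5 (1 peak, 3.50) were in control only and Tbc1d2 (2 peaks, 3.37) in PTC only. Of the effector genes 18 of 22 were in both. Among the 63 shared genes 16 had more peaks in PTC (25.4%, against 16% of all genes in both lists), 15 equal numbers and 32 fewer in PTC (50.8%, against 41.6%). With the lists at equal length, a count added after seeing the data, 24 of 60 shared genes had more peaks in PTC (40%, against 24.7% of all) and 22 had fewer (36.7%, against 28.2%). In that setting the control list was cut at a −log10 FDR of 2.93 and the PTC list was not, which bears on these counts too. Dennd4a, an exchange factor gene for Rab10, had 6 PTC and 12 control peaks.

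Of 69 protein-coding genes of this name pattern in GENCODE M21, 20 had no row in the lists used here. They include Rab4a, Rab5c, Rab1b and Rab27b, relatives of listed genes, and Rab3a, Rab3b and Rab3c. Whether these transcripts were unmethylated, weakly expressed or under the threshold of the lists cannot be told apart, since no expression values were used here.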

How the data were processed

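The authors deposited 1 peak list per condition and 1 summary table, with no values per sample. Peaks are listed, per the file headers, with p-value, log10 FDR and linear fold enrichment, a ratio taken here as immunoprecipitate over input, whose scaling is not stated. The deposited summary table gives the percent of reads in peaks. BWA 0.7.12, MACS2 2.1.0 and build GRCm39 are named, without roles, per the submitters' processing notes. Which program called the lists, its threshold, any pooling of samples and the use of strand were not given in the sources used here, so reads of genes on opposite strands may be shared. The highest FDR was 4.68% in PTC and 4.27% in control.

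Coordinates are read as GRCm38 and none was converted: 99.8% of peaks of either list lay inside the gene of the same identifier and strand in GENCODE M21 (GRCm38), and 85.9% of PTC and 87.2% of control peak junctions matched its introns to the base. Positions count from 1. Peaks were compared over exon blocks with bedtools 2.31.1, and the middle base of the blocks, since no summit is given, was given its region over all transcripts of the gene (coding sequence before 3′ UTR before 5′ UTR). The distance to a stop codon is the smallest over its transcripts. GGACT was searched on the transcript strand alone. Intervals are exact Clopper-Pearson 95%. Functions were tested on simulated peaks. The genes, roles, pathway lists and markers were chosen with earlier results of these data known. Genes named are those in 1 list only, the 10 most significant of each list, the 8 with the largest difference in peak number, shared genes with no overlapping pair, and 9 genes known in T cell traffic. Others were chosen after their values were seen. Python 3.11.15, pandas 2.3.3 and scipy 1.17.1 were used.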

Additional observations from a re-analysis of the deposited data

How the results depend on the processing

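Under the alternatives 19 values stayed close to those reported (inside the 95% interval of a share, or no more than 1.5 times a count) and 20 did not. The 19 include the PTC peak count at equal list length, which could not change because only the control list was cut. They also include wider Rab cycle genes with more (16 and then 24) and fewer PTC peaks (32 and then 22), though their order reversed. With peaks below −log10 FDR 5 dropped, Rab-named genes in PTC only (3 and then 3) and control only (3 and then 2) stayed close. The genes behind these counts all changed, since no gene first listed in 1 condition only kept a peak. Their places were taken by Rab11a, Rab29 and Rab3il1 in PTC and by Rab11fip3 and Rab6a in control. Restricting both lists to a −log10 FDR of at least 5 left 59 PTC and 67 control peaks of Rab-named genes, of which 79.7% and 71.6% were overlapped, with 26.9% of control midpoints near a stop codon. A fold enrichment of at least 4 left 43 PTC and 59 control peaks (55.8% and 42.4% overlapped), and 23 genes in both lists, 6 in PTC only and 8 in control only. At equal list length 5 genes were in PTC only. With midpoints within 100 bp, 48% of PTC and 37.1% of control peaks were matched. Overlap shares over all genes were not taken under these settings, so the all-gene shares given earlier are not their counterpart. Within 100 nt of a stop codon lay 14% and 12.1%. GGACT stood within 100 nt of 17.2% of PTC midpoints, and GGAC, an alternative added after seeing the data, within 50 nt of 34% of PTC and 31.8% of control midpoints. The cause of these shifts was not tested, beyond fewer peaks or wider windows by construction. No sample could be left out, and no paired analysis was possible because the lists hold no values per sample. Depth and counting error per peak are unknown.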

Other observations

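Several weak Rab peaks carried exactly the same pair of fold enrichment and FDR. A fold of 18.7 with a −log10 FDR of 4.16 was given to control peaks of Rab11fip4, Rab31 and Rab39, and to 50 control peaks over all genes. A fold of 13.6 with 2.65 was given to PTC peaks of Rab30, Rab3gap2 and Rab44, and to 110 PTC peaks over all genes. High folds of such peaks go with a low significance, and Rab44 is listed in PTC by that peak alone.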
